A study of Mus musculus with 9 samples.

Results

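The step from Immature to M1 natural killer (NK) cells was read from 2 of the 9 RNA sequencing libraries of the series, the Immature library and the M1 library. Each was made once from wild-type cells sorted from the spleen of C57BL/6 mice and used without culture, and another sorted wild-type library, M2, shows what followed. The other 6 libraries served as an independent readout. They are 3 of Id2-null and 3 of WT NK cells from the same strain and organ, which per the labels had been grown in interleukin-15 (IL-15) for 7 days. None of the 9 received a further treatment per the labels. The labels number the cultured samples 1 to 6 and the sorted samples 7 to 9, and these numbers were matched to the libraries in listed order. The antibodies or gates that define Immature, M1 and M2, the way Id2 was deleted, the number, age and sex of the mice, and any pooling of animals were not stated in those labels. Itgam, Entpd1 and Cma1 as genes that come on and Il7r, Tnni1 and Ltb as genes that go down were the markers set for this step.

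NK cells belong to the innate lymphocytes and use perforin and granzymes to kill virus-infected and tumour cells. In the mouse spleen they mature from cells that carry CD27, KIT and the IL-7 receptor, through cells that add the integrin CD11b, the product of Itgam, to cells that lose CD27 and carry KLRG1. Maturing NK cells are known to divide less, to store more granzyme and perforin protein, and to depend on the T-box factors T-bet and EOMES and on ZEB2, Blimp-1 and KLF2. Immature NK cells also share genes with group 1 innate lymphoid cells (ILC1), such as the IL-7 receptor gene and Tnfsf10, which encodes the death ligand TRAIL.

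Total counts were 4128414 in the Immature, 4462803 in the M1 and 4500825 in the M2 library, and all 9 lay between 4128414 and 4831831. With 1 library per population there is no replicate check of the step, so no p-value is given for it. Levels are in CPM, the count scaled to the library total, and 3 values in a row stand in the order Immature, M1 and M2. The size of a change is the log2 ratio of M1 to Immature CPM with a prior of 2 counts, and intervals are exact 95% intervals of the ratio of 2 counts. Because the reads carry no molecular identifiers and are not independent molecules, these intervals hold for counting error alone. A level listed as 0 allows up to 3 counts, which is 0.727 CPM in Immature and 0.672 CPM in M1. A gene was tested for size where its mean over Immature and M1 was at least 5 CPM, which held for 9732 genes.

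At this step 132 genes (1.36% of 9732) were at least 2-fold higher in M1 and 309 (3.18%) at least 2-fold lower, with a median log2 ratio of -0.01 over all tested genes. Of the higher genes 33 differed at least 3-fold, 22 at least 4-fold and 3 at least 8-fold. Of the lower genes 120 differed at least 3-fold, 63 at least 4-fold and 13 at least 8-fold. These shares have to be read against what 2 libraries of 1 group can give. The 441 genes past 2-fold either way were 4.53% of those tested. Between 2 replicates of a cultured group the same count gave 0.451% to 8.83%, and the 2 highest values both involved replicate 3 of the Id2-null group. By the number of genes past 2-fold the step therefore lay inside the range of replicate pairs. This rests on that library: without it the highest pair, WT replicates 2 and 3, gave 4.1%, and the step lay above all 4 remaining pairs. From M1 to M2, 261 genes (2.69% of 9689 tested) were at least 2-fold higher and 134 (1.38%) lower. Just inside the threshold stood N4bp2 (24.2 CPM in Immature and 11.9 CPM in M1), Klhl30 (16.2 and 32.9 CPM) and Dut (66.9 and 33.2 CPM). Just outside it stood Crls1 (17.9 and 8.74 CPM), Abhd6 (8.96 and 4.26 CPM) and Kcnc1 (14.8 and 7.17 CPM).

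**Figure D1:**
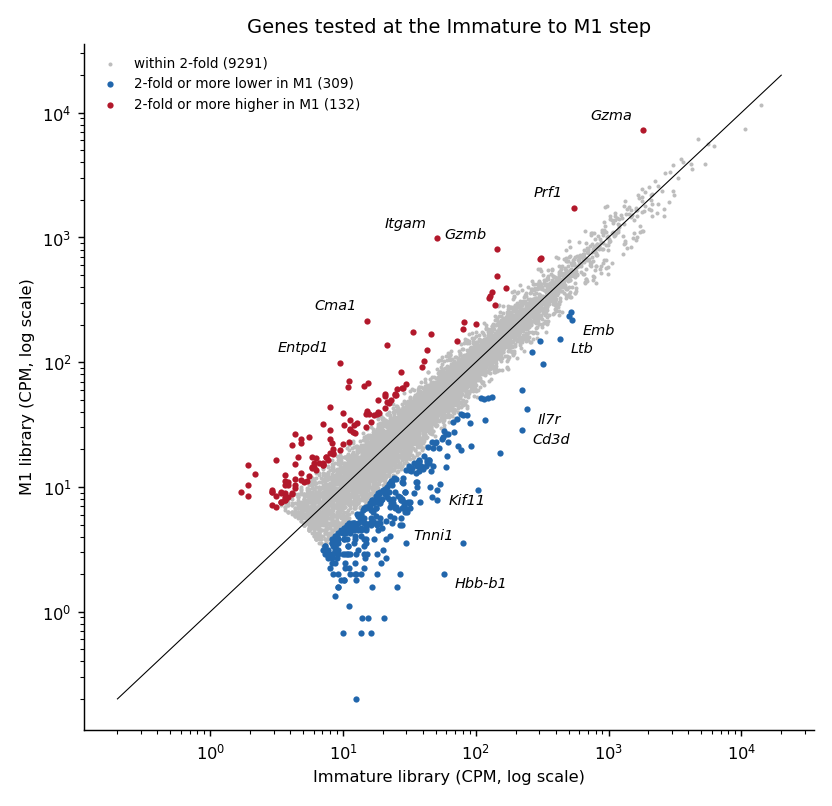
Level of each of the 9732 tested genes in the Immature (x axis) and M1 (y axis) library, in CPM on log scales, with the line of equal levels. Points for the 132 genes higher in M1 reach farthest from the line at Itgam, Cma1 and Entpd1, and those for the 309 lower genes include Hbb-b1 far below it. The 1 gene without counts in M1 is drawn at the lower edge.

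Both libraries carried the defining genes of NK cells at high levels. Ncr1, which encodes the activating receptor NKp46, stood at 1375 CPM in Immature and 1678 CPM in M1. Klrb1c, the gene of NK1.1, stood at 2232 and 2815 CPM, and Il2rb, the IL-15 receptor chain CD122, at 4145 and 3857 CPM. Of the 18 tested genes of NK identity 2 were at least 2-fold higher in M1, 0 were lower, and the median log2 ratio was 0.38. Those 2 were Gzma and Prf1, while Eomes (497 and 644 CPM) and Id2 (754 and 885 CPM) differed less than 2-fold. The label of NK cells thus matched these genes at both ends of the step, which does not measure how pure either library was. Transcripts of both sexes were present in each, with Xist at 121 and 106 CPM and the Y-linked Eif2s3y at 42.4 and 43.7 CPM, and 0 of 5 sex-linked genes passed 2-fold.

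All 6 markers set for the step differed in the stated direction, which is a description because they were picked with results of these libraries known. Itgam (chromosome 7, positions 128062640 to 128118491 in GRCm38) encodes the integrin chain CD11b and had the largest ratio of M1 to Immature among genes with at least 20 CPM. It had 212 counts in Immature, 4386 in M1 and 6859 in M2, or 51.4, 983 and 1524 CPM. The ratio of M1 to Immature was 19.1 (95% counting interval 16.7 to 22.1). The larger part of the Itgam ratio between Immature and M2 lay before M1, since M2 was 1.55 times M1. The labels do not state whether CD11b or KLRG1 was used to sort these populations. If so, the gate itself would set part of the ratios of Itgam and Klrg1. Cma1, a chymase gene of mast cells and some NK cells, stood at 15.3, 216 and 681 CPM (ratio 14.1, interval 11 to 18.5). Entpd1 (chromosome 19, positions 40612366 to 40741602) encodes CD39, an enzyme that degrades extracellular ATP. Its levels were 9.45, 99.5 and 245 CPM (ratio 10.5, interval 7.58 to 15). Cma1 and Entpd1 both moved on past M1, by 1.66 and 1.29 on the log2 scale.

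On the side of the lower markers, Il7r (chromosome 15, positions 9506159 to 9529941), the gene of the IL-7 receptor chain, stood at 243, 41.9 and 30.7 CPM. The level in Immature was 5.81 times that in M1 (interval 4.97 to 6.83), and M1 to M2 differed by less than 1.5-fold, so this change was complete in M1. Ltb, which encodes lymphotoxin beta, stood at 433, 154 and 50.2 CPM (Immature over M1 2.82, interval 2.58 to 3.08) and went on down by a similar amount. Tnni1 encodes the slow skeletal troponin I and had 115, 22 and 5 counts, or 27.9, 4.93 and 1.11 CPM. It was the only tested member of a 14-gene list of striated muscle markers. The list summed to 30.5, 6.05 and 2.22 CPM in the 3 sorted libraries, so that Tnni1 made up most of it in Immature and M1. Of its genes 7, 9 and 11 were at 0, among them Myh7, Mb and Tnnc1 in all 3.

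**Figure D2:**
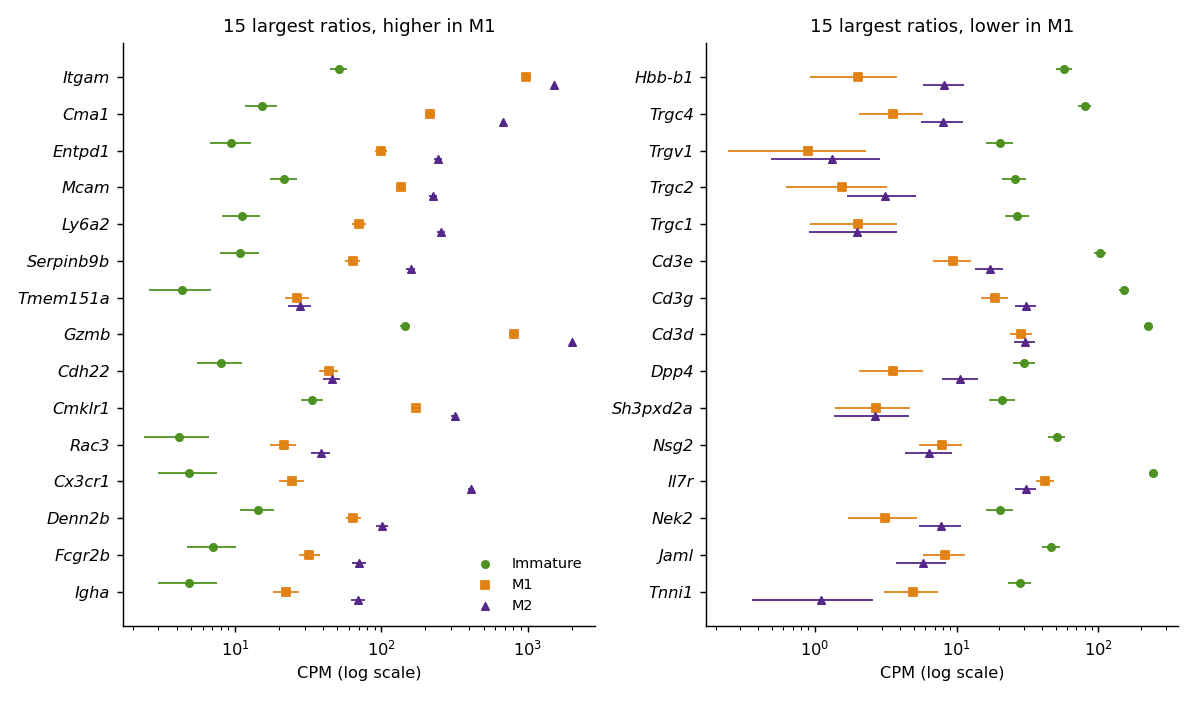
Levels in CPM (log scale) in the Immature, M1 and M2 library of the 15 genes with the largest ratio in each direction, among genes with at least 20 CPM in the higher of Immature and M1. Bars are 95% counting intervals, 1 library per population. For 13 of the 15 genes on the left M2 lies at least 1.5-fold above M1, and Tmem151a and Cdh22 are level.

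Genes of mature NK cells were the group with the largest share higher in M1. Of 18 tested members of a list of mature NK genes 11 were at least 2-fold higher and 0 lower, with a median log2 ratio of 1.41, against 1.36% and -0.01 over all tested genes. All gene lists were chosen with earlier results of these data known, and this one holds the step markers Itgam and Cma1. Its counts are therefore a description and not a test. The exception to the direction was S100a4, at 79.7 and 49.3 CPM in the first 2 libraries. Only Klf2 of the 11 had reached its M2 level in M1, and the other 10 were at least 1.5-fold higher again in M2. Klrg1, an inhibitory receptor of terminal NK cells, stood at 9.93, 39.4 and 793 CPM, and Cx3cr1, the fractalkine receptor, at 4.84, 24.4 and 410 CPM. For these 2 genes the greater part of the change in level came after M1, by 4.31 and 4.05 on the log2 scale.

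Within the killing machinery 4 genes passed 2-fold, all higher in M1. Gzma, a granzyme gene on chromosome 13, had 7556 counts in Immature, 32206 in M1 and 66275 in M2, or 1830, 7217 and 14725 CPM (ratio 3.94, interval 3.85 to 4.04). Gzmb, the granzyme that triggers caspases, stood at 145, 803 and 2016 CPM (ratio 5.55, interval 5.09 to 6.07). Prf1, the perforin gene, stood at 547, 1722 and 2855 CPM (ratio 3.15, interval 3.0 to 3.30). With Cma1 these were the 4 of 18 tested cytotoxic granule genes past 2-fold, against 1.36% higher over all tested genes. All 4 continued to M2, and the list median was 0.38. Genes of granule transport and release stayed within 2-fold, such as Rab27a (127 and 159 CPM), Unc13d (193 and 210 CPM) and Stxbp2 (117 and 116 CPM). Gzmm ran the other way, at 56.7, 33.4 and 12.4 CPM, also within 2-fold at this step. Among serpins, inhibitors that shield killer cells from their own proteases, Serpinb9b stood at 10.9, 63.6 and 159 CPM, and Serpinb9 at 404, 704 and 866 CPM. Serpina3f and Serpinb1a were lower in M1. Gzmb, Cma1 and the basophil protease gene Mcpt8 lie together on chromosome 14 between positions 55941451 and 56262334. Granzyme and serpin genes have close copies, and the handling of reads shared between copies was not stated.

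The 250 bases before the start of Itgam and of Gzmb are shown because these genes had the largest ratios among the integrin and the granzyme genes. Capitals mark matches on either strand to the E-box CANNTG, the letters that E proteins bind, and to TCACAC, part of the T-box site (RefSeq, GRCm38.p6, written 5' to 3' along the gene). The window of Itgam is chr7:128062390-128062639, plus strand, and that of Gzmb is chr14:56262335-56262584, minus strand.
Itgam: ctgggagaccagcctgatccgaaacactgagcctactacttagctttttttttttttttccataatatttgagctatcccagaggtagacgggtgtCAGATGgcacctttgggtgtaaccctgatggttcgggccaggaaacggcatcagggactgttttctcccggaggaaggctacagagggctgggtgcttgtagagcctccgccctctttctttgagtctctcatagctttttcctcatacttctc
Gzmb: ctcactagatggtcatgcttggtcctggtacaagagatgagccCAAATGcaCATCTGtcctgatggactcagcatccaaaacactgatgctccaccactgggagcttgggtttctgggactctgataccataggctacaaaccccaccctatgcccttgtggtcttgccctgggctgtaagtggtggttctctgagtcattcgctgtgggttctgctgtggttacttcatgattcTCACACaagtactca
The Itgam window held 1 E-box, 154 bases before the start, and no TCACAC. The Gzmb window held 2 E-boxes, 207 and 199 bases before the start, and a TCACAC 15 bases before it. Over windows that run from 250 bases before to 50 after the start, 99 of the 132 higher genes had an entry. An E-box was in 74.7% of them, against 62.1% of the 7667 tested genes with an entry and 72.1% of all 27025 promoters in the table. TCACAC was in 13.1%, against 10.4% and 14.4%. These are counts of letters, with no measure of binding.

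**Figure D3:**
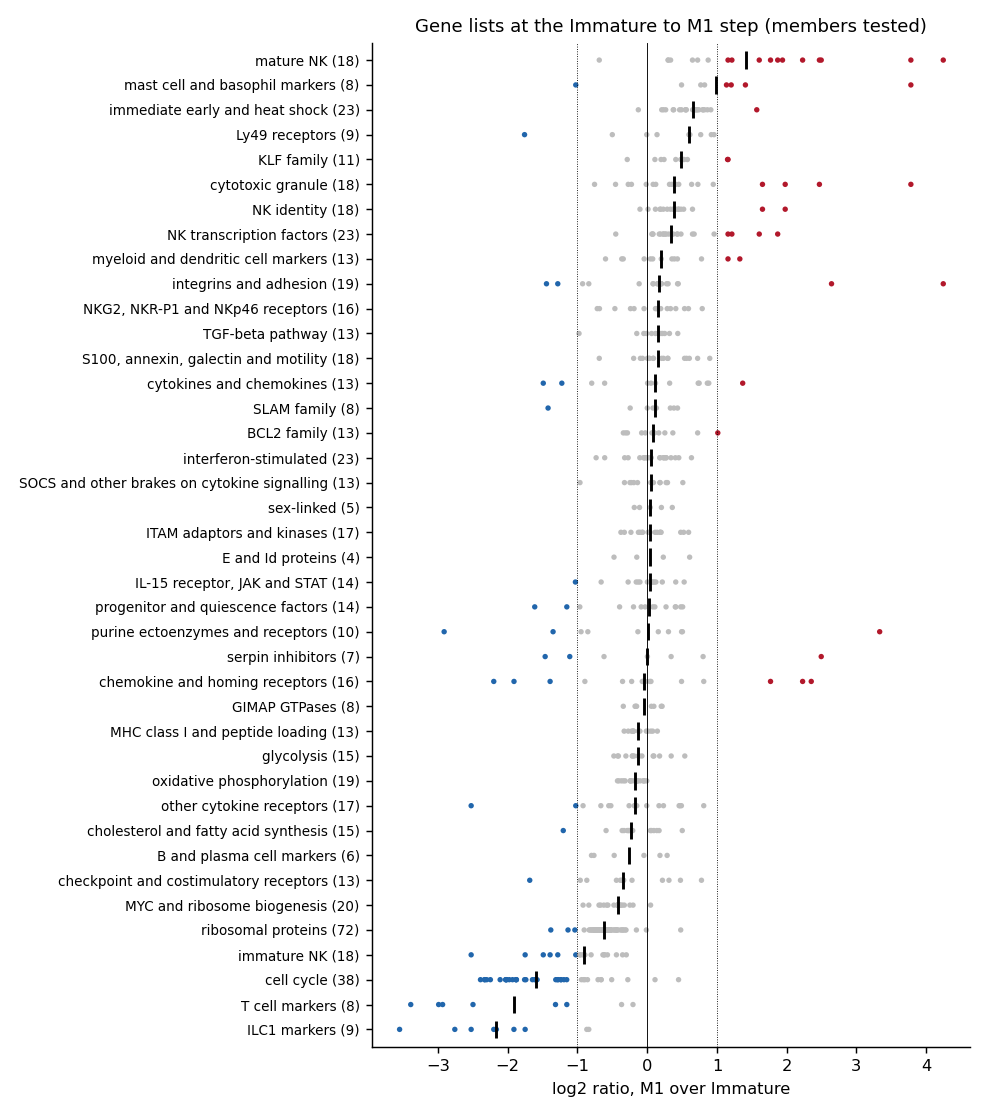
Log2 ratio of M1 to Immature for each tested member of the gene lists with at least 3 tested members, ordered by list median (black bar), with dotted lines at 2-fold. The lists at the top and bottom are the mature NK genes (median 1.41) and the ILC1 markers (median -2.16).

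Several transcription factors of the maturation programme were higher in M1, and Eomes, Tbx21 and Id2 stayed within 2-fold. Of 23 tested NK transcription factors 4 were at least 2-fold higher and 0 lower (median 0.34), against 1.36% and 3.18% of all tested genes. Zeb2, which encodes a repressor needed for terminal NK maturation, stood at 46.0, 170 and 259 CPM (ratio 3.69, interval 3.14 to 4.34). Prdm1, the gene of Blimp-1, stood at 27.1, 83.6 and 128 CPM (ratio 3.08, interval 2.49 to 3.84), and Irf8 at 168, 390 and 589 CPM. Klf2, a factor of lymphocyte quiescence and trafficking, had 1269 counts in Immature, 3066 in M1 and 3220 in M2, or 307, 687 and 715 CPM, and was complete in M1. Tbx21, the gene of T-bet, was within 2-fold at 351, 551 and 717 CPM. Of the 11 tested KLF genes 10 lay above 0 on the log2 scale (median 0.48), with Klf12 also past 2-fold and complete. Among progenitor and quiescence factors 0 of 14 were higher and 2 were lower, Ikzf2 (29.1, 9.19 and 6.22 CPM) and Bcl11b (23.5, 10.3 and 11.1 CPM). Tcf7, the gene of TCF-1, stood at 999, 511 and 123 CPM, so that it had a log2 ratio of -0.97 here and of -2.05 at the next step.

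Receptors for tissue position differed in both directions. Of 16 tested chemokine and homing receptors 3 were higher and 3 lower, against 1.36% and 3.18% of all tested genes. S1pr5, which lets NK cells leave marrow and lymph nodes, stood at 144, 490 and 812 CPM. Cmklr1, the chemerin receptor, stood at 33.7, 174 and 318 CPM (ratio 5.16, interval 4.31 to 6.23). The third was Cx3cr1. The lower ones were Cxcr6 (30.5, 6.27 and 16 CPM), the receptor of tissue-resident lymphocytes, Ccr7 (13.1, 3.14 and 4.89 CPM) and Gpr183 (14.3, 5.15 and 8.44 CPM). Ccr2 and S1pr1 each differed by less than 2-fold. Among 19 tested integrin and adhesion genes Itgam and Mcam (21.6, 137 and 225 CPM) were higher, and Emb (530, 217 and 65.8 CPM) and Itgb3 (89.9, 32.7 and 33.8 CPM) were lower. Itgb2, which encodes the chain that pairs with CD11b, stood at 1421 and 1749 CPM, within 2-fold.

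Immature NK genes were lower in M1. All 18 tested members had log2 ratios below 0 (median -0.91), and 6 were at least 2-fold lower, against 3.18% of all tested genes. This list too was chosen with earlier results known and holds the step markers Il7r and Ltb, so its counts are a description. Besides Il7r and Ltb these were Tnfsf10 (117, 34.5 and 27.1 CPM), Gpr183, Emb and Kit, the stem cell factor receptor gene (302, 148 and 50.9 CPM). Il7r and Tnfsf10 were complete in M1. Ltb, Emb and Kit continued, and so did Kbtbd11 (508, 236 and 66.7 CPM) outside the list. Cd27, the surface marker of less mature NK cells, was within 2-fold at this step, with 181, 133 and 34.7 CPM. Xcl1 (509, 333 and 130 CPM), Cxcr3 (289, 155 and 50 CPM) and Cd160 (340, 174 and 71.8 CPM) likewise stayed inside 2-fold at this step.

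ILC1 markers had the lowest median, -2.16, among lists with at least 3 tested members. In M1 7 of 9 tested members were at least 2-fold lower, against 3.18% of all tested genes, and 0 were higher. The 11 genes of the list summed to 506, 115 and 123 CPM, and none was at 0 in any of the 3. Il7r was the most abundant of the 11 in Immature. Tmem176b and Tmem176a, neighbouring genes on chromosome 6, stood at 31.7, 6.72 and 7.33 CPM and at 19.4, 2.46 and 5.33 CPM. Gpr55, a lipid receptor gene, had 64, 4 and 2 counts, and Inpp4b, a phosphatase gene, stood at 14.8, 3.59 and 3.33 CPM. Of the 7 lower genes 4 were complete in M1. In bulk libraries, fewer cells of a type and less RNA per cell cannot be told apart.

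T cell receptor and CD3 genes were among the genes with the largest ratios on the lower side. Cd3e, Cd3g and Cd3d, which encode the signalling chains of the receptor, lie with Jaml between positions 44969572 and 45108531 of chromosome 9, and all 4 were lower in M1. Cd3d had 918 counts in Immature, 128 in M1 and 137 in M2, or 222, 28.7 and 30.4 CPM (Immature over M1 7.75, interval 6.44 to 9.40). Cd3g stood at 151, 18.6 and 30.7 CPM and Cd3e at 103, 9.41 and 17.1 CPM. On chromosome 13, 6 gamma chain segments between positions 19184981 and 19352343 were lower as well. Of these Trgc4 stood at 80.2, 3.59 and 8.0 CPM (Immature over M1 22.4, interval 13.6 to 39.6). Of 22 tested T cell receptor segments 13 were at least 2-fold lower, against 3.18% of all tested genes, and 0 higher. The 13 were of the gamma, delta, alpha and beta chains, with Trdc at 320, 97.5 and 75.3 CPM and Trbc2 at 264, 122 and 140 CPM. The other 9 were within 2-fold, among them Trbc1 (194, 122 and 96.9 CPM), and 3 of these had ratios above 0, namely Trbj1-5, the delta variable segment Trdv2-2 (23.7, 25.5 and 34.2 CPM) and Trdv4 (29.3, 36.3 and 62.4 CPM). Copies of these segments resemble each other closely, which makes their counts uncertain.

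Markers of whole T cells did not all follow the receptor genes. Of a list of 14 T cell markers, which holds Cd3d, Cd3g and Cd3e themselves, 8 were tested. Of these 6 were lower and 0 higher (median -1.91), against 3.18% and 1.36% of all tested genes. The list summed to 726, 223 and 222 CPM, with Cd3d, Cd3g and Cd3e at 222, 151 and 103 CPM in Immature. Besides these Cd3 genes, Bcl11b, Cd5 and Camk4 were lower, and Cd28 (171, 132 and 75.1 CPM) was within 2-fold. Cd8a (6.78 and 5.83 CPM) was also within 2-fold. Cd4 (4.36 and 4.26 CPM), Cd8b1 (0.969 and 1.79 CPM) and Foxp3 (1.21 and 1.57 CPM) were under the 5 CPM needed for testing. The part of other cells in these differences was not tested. Leaving out the members of the lists of other cell types, an alternative added after the data were seen, removed 7 of the 132 higher and 15 of the 309 lower genes. Those lists hold the step markers Cma1, Il7r and Tnni1, but not the lower T cell receptor segments or Hbb-b1, which stayed in. The numbers removed therefore do not measure the part of other cells.

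Markers of other blood cells differed in smaller numbers at this step, and their sums were higher in M2. B and plasma cell markers had 0 of 6 tested genes past 2-fold and summed to 250, 188 and 737 CPM, although Igha (4.84 and 22.4 CPM) and Ighg2c (1.70 and 9.19 CPM), which encode antibody heavy chains, were higher. Myeloid and dendritic markers had 2 of 13 higher, Cebpa and Csf3r, and summed to 1160, 1320 and 1831 CPM, with Lyz2 at 54.0 and 55.8 CPM. Mast cell and basophil markers summed to 444, 604 and 1260 CPM. Of 8 tested 4 were higher and 1 lower, against 1.36% and 3.18% of all tested genes. Those 4 were Cma1, Gata2 (8.24 and 22.6 CPM), Fcer1a (6.06 and 14.6 CPM) and Mcpt8 (24.7 and 54.9 CPM), while the mast cell proteases Mcpt1, Mcpt4 and Tpsab1 had no counts in either library. Hbb-b1, a beta globin gene, had 237, 9 and 37 counts, while Hba-a1 (1.70 and 2.02 CPM) and Alas2 (2.42 and 1.34 CPM) had low levels. Of the erythroid and platelet list, which does not hold Hbb-b1, 2 members were tested and 1 was higher, the platelet receptor gene Gp1bb (2.18, 12.8 and 31.5 CPM), and the list summed to 21.8, 37.6 and 84.2 CPM. The part of these cells in the genes above was not tested.

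Cell division genes were lower in M1. Of 38 tested cell cycle genes 27 were at least 2-fold lower and 0 higher, with a median log2 ratio of -1.60. Over all tested genes 3.18% were lower and 1.36% higher. Kif11, the motor that builds the bipolar spindle, had 212 counts in Immature, 42 in M1 and 94 in M2, or 51.4, 9.41 and 20.9 CPM (Immature over M1 5.46, interval 3.90 to 7.79). Top2a, which untangles replicated DNA, stood at 222, 60.1 and 74.0 CPM, and Mki67, the gene of the proliferation antigen Ki-67, at 68.5, 27.3 and 17.6 CPM. The mitotic genes Plk1, Nusap1, Kif20a and Tpx2 were all at least 4-fold lower, while the replication licensing genes Mcm2 to Mcm7 lay between log2 ratios of -0.28 and -0.94. Ccnd2 and Ccnd3, D-type cyclins that act at the entry to the cycle, did not follow, with Ccnd2 at 817 and 883 CPM and Ccnd3 at 343 and 469 CPM. Of the 27 lower genes 13 were complete in M1, 2 continued and 12 moved back up by at least 1.5-fold in M2. In the WT cultures Kif11 stood at 272 ± 41.4 CPM and Mki67 at 1321 ± 90.8 CPM (SD, n = 3 each), above all 3 sorted libraries.

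Promoters of 22 of the 27 lower cell cycle genes had an entry in the RefSeq table, and they shared 2 letter patterns. CCAAT was in 72.7% of these windows and TTTGAA, the core of the cell cycle homology region, in 54.5%. Among all tested genes the shares were 39.3% and 11.9%, and among all promoters 37.9% and 18.1%. Both stood together in 54.5%, against 5.03% of tested genes. Lower genes outside the cell cycle list held CCAAT in 47.1% and TTTGAA in 26.2%, and the 99 higher genes in 32.3% and 6.06%. The 250 bases before the start of Kif11 (chr19:37376132-37376381, plus strand) and Ccnb2 (chr9:70421555-70421804, minus strand), a mitotic cyclin gene at 32.2, 7.62 and 15.3 CPM, are shown with both patterns in capitals, read on either strand. They had the largest ratios of the 8 list members considered that held both patterns in this stretch. The choice left out part of the list by genome position, so the 8 and the ranking do not cover the whole list.
Kif11: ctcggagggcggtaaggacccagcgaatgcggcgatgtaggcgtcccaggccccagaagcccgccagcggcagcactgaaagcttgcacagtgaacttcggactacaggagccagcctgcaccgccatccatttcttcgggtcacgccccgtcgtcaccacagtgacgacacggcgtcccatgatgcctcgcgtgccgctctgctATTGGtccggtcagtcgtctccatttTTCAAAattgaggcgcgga
Ccnb2: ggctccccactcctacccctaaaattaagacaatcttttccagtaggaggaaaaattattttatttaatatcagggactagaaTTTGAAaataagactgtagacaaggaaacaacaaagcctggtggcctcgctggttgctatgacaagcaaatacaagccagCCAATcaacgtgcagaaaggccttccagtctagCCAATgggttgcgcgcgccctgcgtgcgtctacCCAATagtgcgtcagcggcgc
In Kif11 the match to CCAAT lies 45 bases and that to TTTGAA 19 bases before the start, both on the opposite strand. Ccnb2 held CCAAT 87, 54 and 21 bases and TTTGAA 167 bases before its start. The letters describe the promoters and carry no measure of what bound them.

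Genes of protein synthesis were lower by small amounts. Of 72 tested ribosomal protein genes 71 had log2 ratios below 0 (median -0.61), but only Rpl10a, Rpl31 and Rpl37 passed 2-fold. Ribosome biogenesis and MYC-linked genes had 19 of 20 below 0 (median -0.43), with Npm1 at 261 and 146 CPM and Ncl at 649 and 506 CPM. All 19 tested oxidative phosphorylation genes were below 0 as well (median -0.17). Gene length moved with the ratio: the median log2 ratio was -0.16 among the 2434 shortest tested genes and 0.09 among the 2433 longest, and ribosomal protein genes are short. The part of length or RNA quality in these shifts was not tested. Between M1 and M2 the median of the ribosomal protein list was -0.12.

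Immediate early genes ran the other way. Of 23 tested immediate early and heat shock genes 22 had log2 ratios above 0 (median 0.65), though only Atf3 (10.2, 31.1 and 26.0 CPM) passed 2-fold. Fos stood at 1328, 1944 and 1423 CPM and Jun at 500, 941 and 523 CPM, which is highest in M1. These genes are known to respond to cell handling and sorting, and the part of handling was not tested. Cytokine genes were mixed: Ccl3 was higher and complete (125.5, 325 and 336 CPM), Ltb and Csf2 were lower, and Ifng was within 2-fold at 94.0 and 171 CPM.

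Receptors of cytokines and of target recognition changed at single genes. In the IL-15 receptor, JAK and STAT list 1 of 14 members passed 2-fold, Il2ra, which was lower at 12.8, 6.05 and 1.33 CPM. Of 17 tested other cytokine receptors only Il7r and Kit were lower and 0 were higher. Il2rg, the common cytokine receptor chain, stood at 758, 814 and 845 CPM, and Socs3, a feedback inhibitor of STAT signals, at 70.7, 61.8 and 28.4 CPM. None of 16 NKG2, NKR-P1 and NKp46 receptors passed 2-fold. Of 9 tested Ly49 receptor genes, whose sequences are closely related, Klra6 alone did, at 61.0, 17.7 and 19.6 CPM. Among checkpoint and costimulatory receptors 1 of 13 was lower, Lag3 (36.3, 11 and 16 CPM). In the purine list Dpp4, the gene of the ectopeptidase CD26, stood at 30.0, 3.59 and 10.7 CPM and P2rx7 at 8.72, 3.14 and 8.0 CPM, opposite to Entpd1. Lists of interferon-stimulated, glycolysis, GIMAP, TGF-beta, SOCS and MHC class I genes had 0 genes past 2-fold, with medians between -0.13 and 0.15.

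To ask which changes were finished in M1, each step gene was followed into M2. A change was called complete where M2 lay within 1.5-fold of M1, continuing where M2 moved on by at least 1.5-fold, and returning where it moved back by that much. Of all 9732 tested genes 4.39% were at least 1.5-fold higher and 7.92% at least 1.5-fold lower in M2 than in M1. Of the 132 higher genes 69 (52.3%) were complete, 46 (34.8%) continued and 17 (12.9%) returned. Of the 309 lower genes 178 (57.6%) were complete, 48 (15.5%) continued and 83 (26.9%) returned. Both ratios contain the M1 library, so an M1 value that is low or high by counting error counts as returning more easily, and no test was made of these shares.

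On the higher side only 2 of the 15 genes with the largest ratio kept their M1 level, Tmem151a and Cdh22. Among higher genes with at least 20 CPM the ones nearest to level were Tmem163 (18.7, 39.0 and 39.5 CPM), Lpin1, a lipid phosphatase gene (140, 288 and 293 CPM), Tjp1 (7.99, 24.4 and 25.1 CPM), Ccl3, Klf2 and Tmem151a (4.36, 26.7 and 27.8 CPM). Among lower genes they were Trgc1, Sh3pxd2a, Ncapd2 (124, 52.0 and 51.8 CPM), Zfas1, Pola1 (58.1, 28.0 and 28.2 CPM) and Focad. Ncapd2 belongs to condensin and Pola1 to the DNA polymerase that primes replication. Genes that were highest in M1 included Nrarp, a feedback regulator of Notch signalling (71.9, 148 and 91.1 CPM), Nfkbid (24.7, 56.0 and 31.1 CPM) and Zfhx3 (7.99, 28.5 and 14.7 CPM). Genes that were lowest in M1 included Cxcr6, Dpp4, Tgm2 (24.7, 6.72 and 19.8 CPM), Birc5 (31.5, 7.39 and 17.3 CPM), Nek2 and Hbb-b1.

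**Figure D4:**
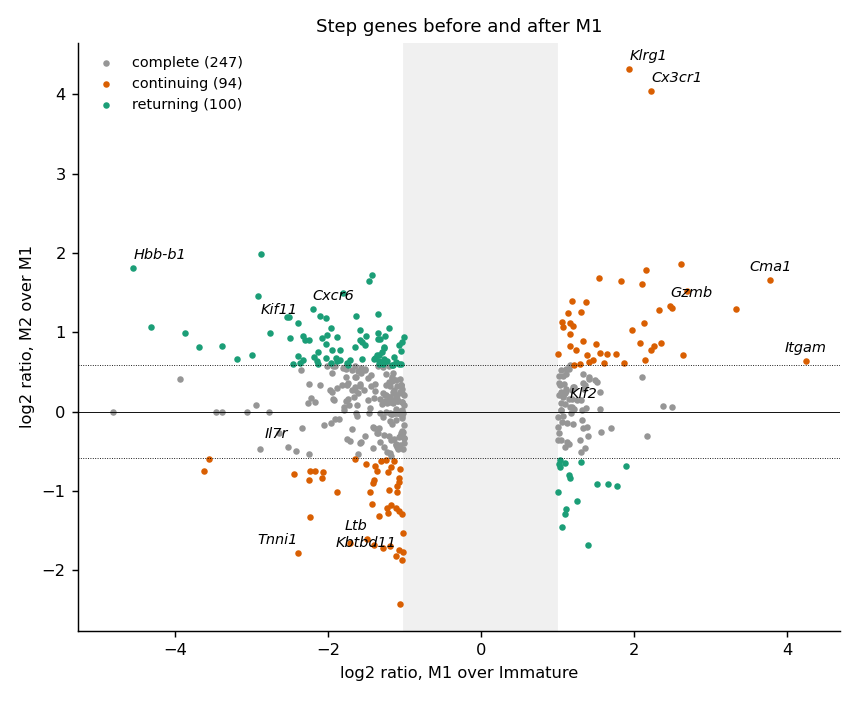
Log2 ratio of M2 to M1 (y axis) against log2 ratio of M1 to Immature (x axis) for the 441 step genes, with dotted lines at 1.5-fold and the span within 2-fold at the step shaded. Of these, 247 lie between the dotted lines, 94 moved on and 100 moved back. Klrg1 and Cx3cr1 stand highest, and Ltb, Kbtbd11 and Tnni1 are among those that moved on downward. The axes share the M1 library.

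The replicated cultures gave a readout of the same genes that the step did not use. Id2-null and WT cells were compared with edgeR's quasi-likelihood test over 11022 genes, of which 377 (3.42%) were called, 210 (1.91%) up and 167 (1.52%) down in Id2-null cells, at a Benjamini-Hochberg adjusted p under 0.05. The Id2-null libraries carried Xist and the WT libraries Y-linked transcripts, so genotype and sex cannot be told apart. Nothing in the labels says that the replicates are separate mice or cultures. Their p-values therefore reflect only how far these libraries spread, which may be technical. Of the 132 genes higher in M1 92 were tested in the cultures, of which 10 fell and 4 rose in Id2-null cells. With the replicate number as a block, 19 fell and 6 rose. Of the 309 genes lower in M1 285 were tested, of which 15 rose and 9 fell, and 37 and 17 with the block. Among all genes tested at the step and in culture 1.54% rose and 1.2% fell in the fit without the block. The block also raised the calls over all 11022 genes, to 452 that rose and 383 that fell. Of 25 continuing higher genes 5 fell and 1 rose, and of 41 continuing lower genes 5 rose and 0 fell. Of 53 complete higher genes 4 fell and 3 rose, and of 171 complete lower genes 8 rose and 5 fell. The difference between these subsets was not tested. The counts moved with single libraries, and so did the calls over all genes. Those 377 became 121 without WT replicate 1 and 183 without WT replicate 2. They became 175, 180 and 662 without Id2-null replicates 1, 2 and 3 in turn. Of the higher genes 14 were called in all, but 6 without WT replicate 1 and 8 without WT replicate 2 or Id2-null replicate 1. Of the lower genes 24 were called, but 10 without WT replicate 1, 13, 12 and 37 without Id2-null replicates 1, 2 and 3 in turn. Without replicate 3 of both groups, a choice made after the data were seen, the calls were 37 and 54, beside 1065 of all 11070 genes tested there.

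Among genes higher in M1, Gzmb fell in Id2-null cultures, with 2391 ± 281 CPM against 9260 ± 229 CPM in WT (SD over 3 libraries each), a log2 difference of -1.96 (edgeR, SE 0.12, adjusted p = 0.000197). Entpd1 had 113, 74.8 and 51.7 CPM in WT replicates 1 to 3 and 2.90, 2.16 and 1.34 CPM in Id2-null replicates, so the groups did not overlap (edgeR log2 difference of -5.21, SE 0.42, adjusted p = 0.00119). Klrg1 fell from 32.8 ± 7.66 to 1.84 ± 0.829 CPM and Serpinb9b from 27.7 ± 4.31 to 0.660 ± 0.379 CPM (adjusted p = 0.000553 and 0.00027). Niban2 and Dennd5a, both complete in M1, also fell (adjusted p = 0.00156 and 0.00203). The 4 that rose were Ly6a2, Mylip, Rap1gap2 and B3gnt7, by 0.87 to 1.63 on the log2 scale. All 4 calls depended on single libraries: each was lost without Id2-null replicate 1 and without WT replicates 1 or 2 (highest adjusted p from 0.0741 to 0.151). Itgam itself did not pass, at 85.9 ± 45.3 against 31.1 ± 28.0 CPM (adjusted p = 0.626). Prf1 (1494 ± 752 against 518 ± 188 CPM) had adjusted p = 0.292, and 0.00563 with the block, and Prdm1 had adjusted p = 0.506, and 0.00175 with the block. Klf2 was low in culture, at 7.00 ± 2.86 CPM in WT and 24 ± 18 CPM in Id2-null cells (adjusted p = 0.360, and 0.0153 with the block, higher in Id2-null).

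Among genes lower in M1, Nsg2 was at 2.66, with an SD of 1.2, in WT and 70.2 ± 13.5 CPM in Id2-null cultures, a log2 difference of 4.71 (edgeR, SE 0.31, adjusted p = 0.000254). Kbtbd11 had 766 ± 37.0 CPM in Id2-null against 217 ± 41.6 CPM in WT cells (adjusted p = 0.00116), and Ltb 322 ± 40.2 against 143 ± 26.1 CPM (adjusted p = 0.00825). Mapk12, a p38 kinase gene, Tns4 and N4bp2 rose as well. In the other direction Cxcr6, Tmem176a and Tmem176b, which were lower in M1 than in Immature cells, fell in Id2-null cells. Cxcr6 stood at 52.7 ± 11.4 CPM in WT and 5.15 ± 2.05 CPM in Id2-null cells (-3.34 on the log2 scale, SE 0.33, adjusted p = 0.00163), and Tmem176b at 37.5 ± 3.65 and 6.54 ± 1.44 CPM (adjusted p = 0.000779). Gbp6, Slc43a3 and Ckb fell too, with the calls lost without WT replicate 1. That of Slc43a3 was also lost without Id2-null replicate 1, and that of Ckb without WT replicate 2 and without either of Id2-null replicates 1 and 2 (highest adjusted p over the alternatives from 0.0589 to 0.0811). Cxcr6, Tmem176a and Tmem176b are on the ILC1 list and Ltb is on the immature NK list. Cd3d and Cd3e did not pass (adjusted p = 0.164 and 0.541). With the block Cd3d was higher (adjusted p = 0.00142) and Cd3e lower (adjusted p = 0.0159) in Id2-null cells. Tnni1 stood at 3.57 ± 1.80 CPM in WT and 9.08 ± 5.29 CPM in Id2-null cells (adjusted p = 0.229, and 0.0201 with the block). Il7r was under the expression filter there, at 0.985 ± 0.122 and 0.742 ± 0.721 CPM, against 243 CPM in the sorted Immature library.

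**Figure D5:**
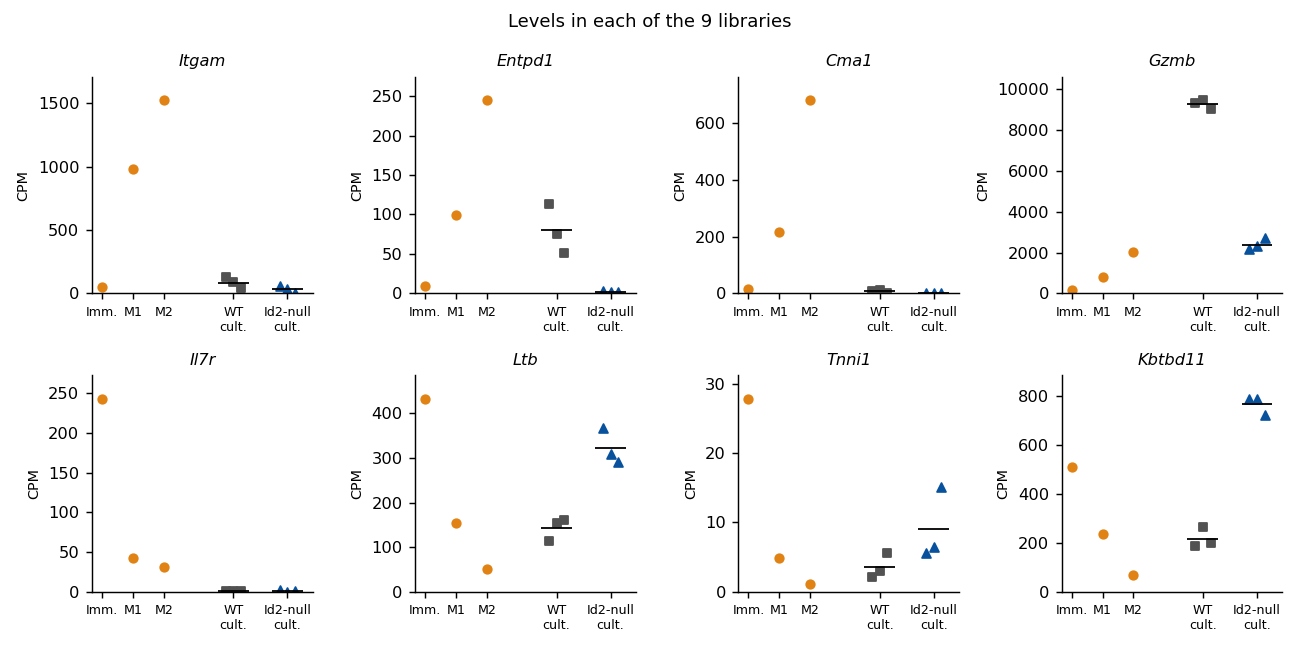
Level in CPM of 8 step genes in each of the 9 libraries: 1 point for each sorted population, 3 points and their mean (bar) for WT and Id2-null cultures. Gzmb and Entpd1 are lower and Ltb and Kbtbd11 higher in all 3 Id2-null than in all 3 WT libraries, while Il7r is at most 1.56 CPM in any culture. Itgam in the WT cultures (85.9 ± 45.3 CPM, SD, n = 3) spans its level in Immature and lies below M1. Each panel has its own axis from 0.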

How the data were processed

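RNA sequencing counts were analysed for the Immature and M1 libraries, with M2 and the 6 cultured libraries as comparisons. The deposited values are raw counts per Entrez gene with a gene length, per the file headers. The submitters' processing notes name Subread, featureCounts, limma and the builds GRCm38 and mm10. Versions, strand setting and the treatment of multiply matching reads were not stated there. Of 27179 genes, 25275 took a symbol from RefSeq (GRCm38.p6) and 18 from GENCODE, and 1886 had none.

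CPM used the total count. Ratios had a prior of 2 counts, genes needed a mean of at least 5 CPM, and called means 2-fold. Intervals are exact (Clopper-Pearson, 95%), from scipy 1.17.1. Cultures were fitted in R 4.3.3 with edgeR 4.0.16 (TMM, filterByExpr with a minimum count of 10, robust quasi-likelihood, genotype alone). Adjusted p-values are Benjamini-Hochberg over all 11022 genes. Same-numbered replicates deviated together from their group means (correlations 0.35, 0.24 and 0.42 for numbers 1, 2 and 3). Numbers 1 and 2 were less clearly apart, with 0.19 for Id2-null 1 with WT 2 and 0.14 for Id2-null 2 with WT 1. The number entered only as a block in an alternative, and the main fit and its adjusted p-values do not use it. Such a pairing comes from the data and not from the labels. The ratio and the edgeR fit were each run on simulated counts with known folds. The simulated counts for the fit held no deviations shared by same-numbered replicates, so that run does not cover this feature of the data.

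The members, gene lists and rules were chosen with earlier results of these data known. Named genes were the 6 markers, the 15 largest ratios each way with at least 20 CPM, up to 4 genes past 2-fold per list (or the 2 most abundant), the 6 genes nearest to level, moving on or moving back each way, the 6 lowest adjusted p per direction, and 18 fixed genes. Other list members were named after their values were seen. Alternatives covered scaling, prior, filter, completeness threshold, DESeq2 1.42.0, the replicate block and leaving out each replicate.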

Additional observations from a re-analysis of the deposited data

How the results depend on the processing

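With 1 library per sorted population, the step has no replicate check, and its counts of genes move with the filter on low counts. Scaling by TMM or DESeq2 factors and priors of 0.5 or 5 counts kept all 4 counts of step genes within 1.5 times. With no filter on low counts 430 genes were higher and 1043 lower, of which 190 and 572 were complete, and with a mean of at least 20 CPM 60 and 79, of which 33 and 46 were complete. With the narrower limit on the M2 to M1 ratio, 43 higher and 105 lower genes were complete. In the cultures the 377 calls over all genes became 835 with the replicate block, 1065 without replicate 3 of both groups and 580 by DESeq2. With 1 replicate left out they became 121 to 662. The 14 calls among higher genes became 25 with the replicate block and 37 without replicate 3 of both groups, and 6 to 21 with 1 replicate left out. Of these, the 4 higher in Id2-null became 7 without replicate 3 of both groups and 0 to 5 with 1 left out. The 10 lower became 19 with the block, 30 without replicate 3 of both groups and 6 to 16 with 1 left out. The 24 calls among lower genes became 54 with the block, 54 without replicate 3 of both groups, 39 by DESeq2 and 10 to 37 with 1 left out. Of these, the 15 higher in Id2-null became 37, 37, 25 and 7 to 24, and the 9 lower became 17, 17, 14 and 3 to 13, in the same order. No named gene past 2-fold at the step changed the sign of its ratio under the scaling and prior alternatives. List medians shifted by at most 0.21 and named genes by at most 0.55 on the log2 scale over the alternatives run for them. The effect of the block on single genes is given beside them, and Lag3 lost its call with it (adjusted p = 0.0474, and 0.0653 with the block). Named genes whose culture values are not given changed call with it too, each toward a call. The causes of these shifts were not tested.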

Other observations

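Some genes past 2-fold at the step belong to no list above. Gpc1, which encodes a cell surface proteoglycan, stood at 133, 369 and 577 CPM in Immature, M1 and M2, and Fgl2, which encodes a secreted fibrinogen-like protein, at 302, 677 and 1332 CPM. Kcnj8, a potassium channel gene, stood at 42.6, 124.8 and 402 CPM. Rap1gap2, a regulator of the small GTPase RAP1 in platelets, stood at 127, 340 and 459 CPM. Among lower genes Dtx1, a Notch-linked ubiquitin ligase gene, stood at 133, 52.7 and 20.9 CPM, Adgrg5, an adhesion receptor gene, at 91.3, 21.3 and 11.8 CPM, and Nsg2, better known from neurons, at 51.1, 7.84 and 6.44 CPM. Gpc1, Fgl2, Dtx1 and Adgrg5 were chosen after their values were seen. Of the 132 higher genes 123 and of the 309 lower genes 282 were protein-coding in the annotation, and 1 gene without a symbol had 52 counts in Immature and 0 in M1 and M2.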
